A study of Mus musculus with 118 samples.

Results

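The ParaHox, Evx, En and Otx genes encode homeobox transcription factors that pattern the body axis, gut and brain, and 10 of them were examined: Cdx1, Cdx2, Pdx1, Gsx1, Evx1, Evx2, En1, En2, Otx1 and Otx2. They were chosen by name, out of 26180 mouse genes with curated RefSeq transcripts, and their promoters and gene bodies were compared with the peaks of RING1B, SUZ12 and PCGF2 in untreated embryonic stem cells (ESCs). A promoter was the transcription start site (TSS) of a curated transcript plus or minus 2500 bp, and a peak was at a promoter when the intervals shared at least 1 bp.

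The peaks came from calibrated ChIP-seq (cChIP-seq), in which human HEK293T cells are mixed with the mouse cells as an internal standard. The series given here has 118 samples in 42 groups, and the peak lists rest on untreated cells of lines derived from E14 ESCs. The PRC1CPM line, labelled clone 41, carries the constitutive alleles Ring1aI50A/D53K, the switchable Ring1b(WT->I53A/D56K)fl/fl and, at the Rosa26 locus, tamoxifen-inducible ERT2-Cre. The PRC1CKO line, labelled clone B9, is Ring1a-/- and Ring1bfl/fl with the same ERT2-Cre. For each of the 3 factors there were 3 samples of untreated PRC1CPM cells, and for SUZ12 another 3 of untreated PRC1CKO cells. Each line is therefore a single clone, and both already lacked normal RING1A before any tamoxifen, while RING1B was intact. Treated cells were not analysed here. Each list is a single set of intervals without heights, p-values, read depth or replicates, so every value below is a description of that list, with no error and no test. The widths depend on how the authors called and filtered each list, and the rules differed between the lists.

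Of the Polycomb repressive complexes, PRC1 ubiquitylates histone H2A through RING1A or RING1B, and PRC2, of which SUZ12 is a core subunit, methylates histone H3 at lysine 27. PCGF2 is a core subunit of the canonical form of PRC1 in ESCs, which reads the PRC2 mark through a CBX protein. Variant PRC1 complexes hold RYBP or YAF2 instead of CBX and can use any PCGF protein, PCGF2 included. In ESCs these complexes gather at CpG islands of developmental genes, which are held silent until differentiation. Most of the genes described here are such lineage regulators, but Otx2 is known to be transcribed in ESCs and is a regulator of the exit from naive pluripotency.

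Because Polycomb complexes gather on unmethylated CpG-rich DNA, the bases just before the start are shown for the ParaHox cluster genes, for En1, which had the most CpG dinucleotides of the 7 genes matched in the promoter table, and for the first and an internal start of Otx2. Each run is the 250 bases before the start, 5′ to 3′ on the strand of the gene, from RefSeq on GRCm38.p6, with every CpG in capitals. The 7 matched genes had 10 starts in the table.
Gsx1, chr5:147188446-147188695, plus strand: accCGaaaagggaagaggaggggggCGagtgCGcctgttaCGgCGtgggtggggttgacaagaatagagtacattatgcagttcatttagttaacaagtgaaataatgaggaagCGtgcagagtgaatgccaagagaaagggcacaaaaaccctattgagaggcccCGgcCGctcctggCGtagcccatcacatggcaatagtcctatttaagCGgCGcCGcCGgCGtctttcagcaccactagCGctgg
Pdx1, chr5:147269847-147270096, plus strand: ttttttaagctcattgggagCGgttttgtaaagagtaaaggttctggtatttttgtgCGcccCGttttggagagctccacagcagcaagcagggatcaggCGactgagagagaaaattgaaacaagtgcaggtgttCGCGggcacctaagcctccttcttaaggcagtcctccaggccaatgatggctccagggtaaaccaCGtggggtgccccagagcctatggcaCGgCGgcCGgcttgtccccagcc
Cdx2, chr5:147307250-147307499, minus strand: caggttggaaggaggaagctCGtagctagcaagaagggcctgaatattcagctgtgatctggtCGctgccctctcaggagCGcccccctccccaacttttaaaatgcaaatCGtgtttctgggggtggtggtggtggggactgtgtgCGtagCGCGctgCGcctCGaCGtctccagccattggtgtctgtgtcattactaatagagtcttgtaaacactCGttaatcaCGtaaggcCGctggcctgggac
En1, chr1:120602237-120602486, plus strand: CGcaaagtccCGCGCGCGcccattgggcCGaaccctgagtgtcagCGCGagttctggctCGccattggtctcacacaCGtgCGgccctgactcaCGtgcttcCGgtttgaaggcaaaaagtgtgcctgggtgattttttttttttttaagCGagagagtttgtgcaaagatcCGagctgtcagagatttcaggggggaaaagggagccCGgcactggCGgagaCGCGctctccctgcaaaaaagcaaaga
Otx2 first start, chr14:48667645-48667894, minus strand: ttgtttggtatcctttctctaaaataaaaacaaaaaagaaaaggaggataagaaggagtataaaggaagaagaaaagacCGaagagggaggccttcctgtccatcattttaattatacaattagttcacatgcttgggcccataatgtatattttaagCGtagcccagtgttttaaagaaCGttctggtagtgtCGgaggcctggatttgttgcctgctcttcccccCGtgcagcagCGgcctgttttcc
Otx2 internal start, chr14:48665110-48665359, minus strand: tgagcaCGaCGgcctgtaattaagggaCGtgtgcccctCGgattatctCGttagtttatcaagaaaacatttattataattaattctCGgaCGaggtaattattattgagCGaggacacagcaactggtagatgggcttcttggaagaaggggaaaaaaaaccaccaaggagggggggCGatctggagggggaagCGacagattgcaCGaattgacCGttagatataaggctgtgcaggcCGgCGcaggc

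These 6 runs held 15, 10, 13, 19, 6 and 14 CpGs in that order, and each lay wholly inside peaks of all 3 factors. The other starts held 10 CpGs at Evx1, 14 at Evx2, and 9 and 8 at the remaining Otx2 starts. Over the 32851 promoters in the table the median was 6 CpGs, and 37.8% had at least 10, compared with 7 of the 10 starts of these genes. The first start of Otx2 was thus no richer in CpG than the median promoter and had 42% G and C, whereas its internal start had 14 CpGs and 48.4% G and C. A peak over a start therefore did not go with a CpG-rich run directly before it in every case.

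All 10 genes had a RING1B peak, a SUZ12 peak and a PCGF2 peak at a promoter. Over all genes the percentages were 53.2% for RING1B, 24.8% for SUZ12, 13.5% for PCGF2 and 13.4% for all 3 together. Every curated start of the 10 genes, including the 4 of Otx2, lay inside peaks of all 3 factors, which was so for 10.2% of all genes.

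The peaks were long. The median width of the widest RING1B peak at a promoter was 20.3 kb over the 10 genes and 1810 bp over the 13922 genes with such a peak. The medians were 21.8 kb against 3232 bp for SUZ12 and 17.4 kb against 2912 bp for PCGF2. A RING1B peak of at least 8000 bp, a width that 3.4% of all genes reached, was present at 9 of the 10. Cdx1 was the exception, and no gene of the group lay near this limit, since the next narrowest RING1B peak, at Gsx1, measured 12.8 kb. At genes with all 3 factors, 533 of the 2943 widest RING1B promoter peaks, each counted once, also reached 8000 bp.

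**Figure D1:**
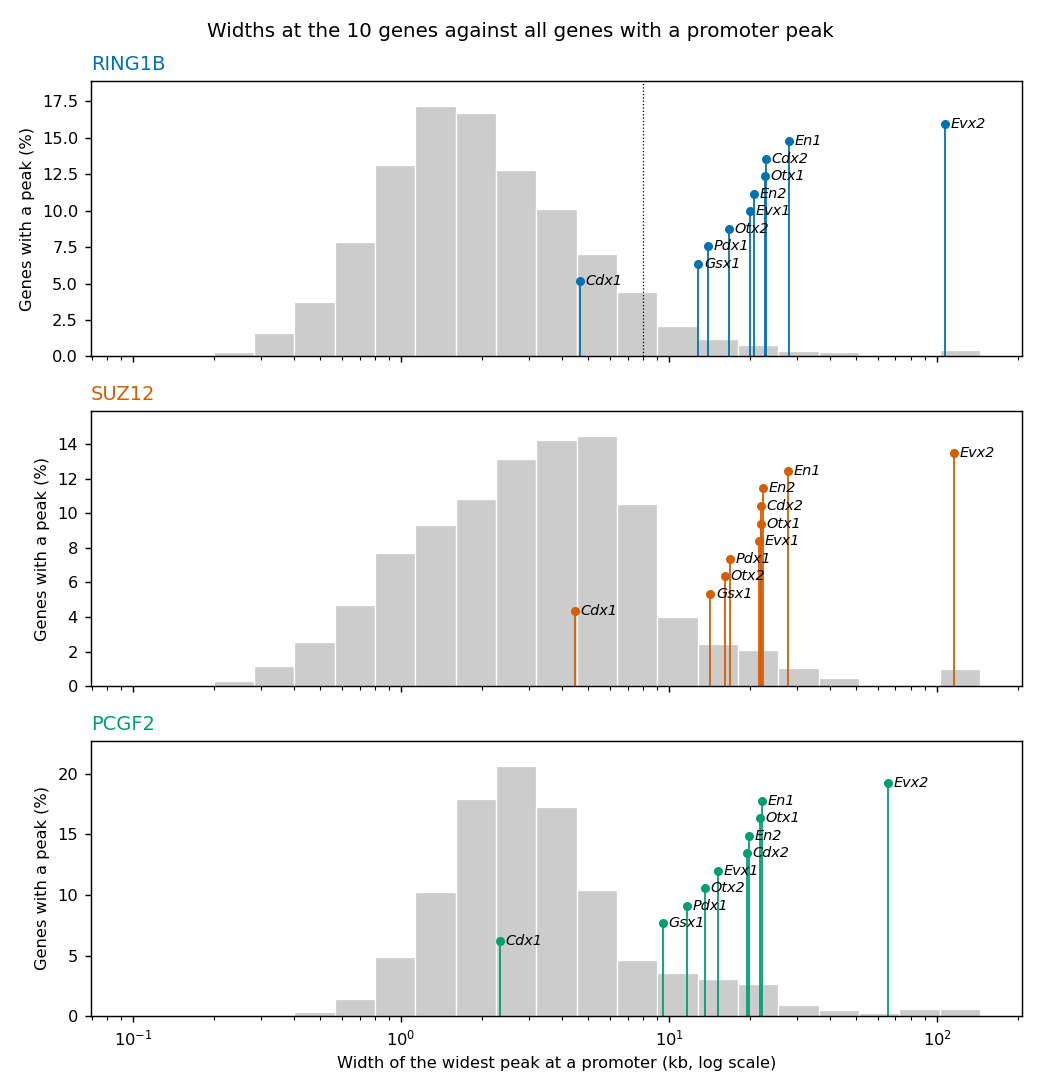
Width of the widest promoter peak of RING1B, SUZ12 and PCGF2 (kb, log scale) for all genes with such a peak, as the percentage of genes in each bin (grey bars), with the 10 genes as coloured points whose height only separates the names. The dotted line marks 8000 bp; 9 genes stand at or beyond 12.8 kb for RING1B and Cdx1 stands at 4.64 kb.

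The caudal-type genes Cdx1 and Cdx2, which act in the posterior axis and intestine, were an unequal pair. At Cdx2 the RING1B peak ran over chr5:147296903-147319928, 23.0 kb, and ranked 62 by width among the 18643 peaks of the list. The SUZ12 peak there was 21997 bp and the PCGF2 peak 19.6 kb. Cdx2 lies on the minus strand at chr5:147300900-147307249, and all 3 of its exons were inside each peak, with RING1B reaching 12.7 kb upstream of the start and 4.00 kb past the gene end. Cdx2 is also the regulator of the trophectoderm, the lineage that ESCs do not normally form.

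At Cdx1 the RING1B peak was 4.64 kb, at chr18:61034408-61039047, and ranked 1962. SUZ12 covered 4.44 kb and PCGF2 2.34 kb. The peaks sat on the start and the first of 3 exons, so only 10.3% of the 17338 bp gene body was covered by RING1B, 7.03% by SUZ12 and 6.75% by PCGF2. Even so, 83.8% of genes with a RING1B promoter peak had a narrower one, whereas for PCGF2 this was 36.6%. Cdx1 thus stood below the median of the 3522 genes with a PCGF2 promoter peak and above most of the 13922 with a RING1B one. These sets of genes differ, so the percentages are not directly comparable. The Cdx2 peaks were 4.96 times as wide as the Cdx1 peaks for RING1B, 4.95 times for SUZ12 and 8.38 times for PCGF2.

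Gsx1, Pdx1 and Cdx2 make up the ParaHox cluster, a sister of the Hox clusters, over 118554 bp of chromosome 5. Gsx1 is a regulator of neural progenitors and Pdx1 of the pancreas. Unlike Evx2 and its Hoxd neighbours, the 3 genes did not share a peak. The RING1B peak was 12.8 kb at Gsx1 (chr5:147183526-147196375, rank 247) and 13.9 kb at Pdx1 (chr5:147267452-147281396, rank 212). SUZ12 peaks measured 14.3 kb at Gsx1 and 16.9 kb at Pdx1, and PCGF2 peaks 9.49 kb and 11.7 kb. The order Gsx1, Pdx1, Cdx2 from narrow to wide was the same in each of the 3 lists.

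RING1B covered 37.4% of the span from the Gsx1 start to the Cdx2 start in 8 peaks, SUZ12 38.4% in 6 and PCGF2 25.1% in 4. Besides the 3 gene peaks, a 7.23 kb RING1B peak lay between Gsx1 and Pdx1, with no curated start within 2500 bp, and it overlapped 2 SUZ12 peaks of 4.61 kb and 3.56 kb and a PCGF2 peak of 3.87 kb. A further intergenic peak between Pdx1 and Cdx2 was 2.98 kb for RING1B and 3.23 kb for SUZ12 and overlapped no PCGF2 peak. It ended 1.55 kb from the Cdx2 domain and 10975 bp from that of Pdx1. The remaining RING1B peaks of the cluster were 505, 1208 and 449 bp wide and overlapped neither other list.

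**Figure D2:**
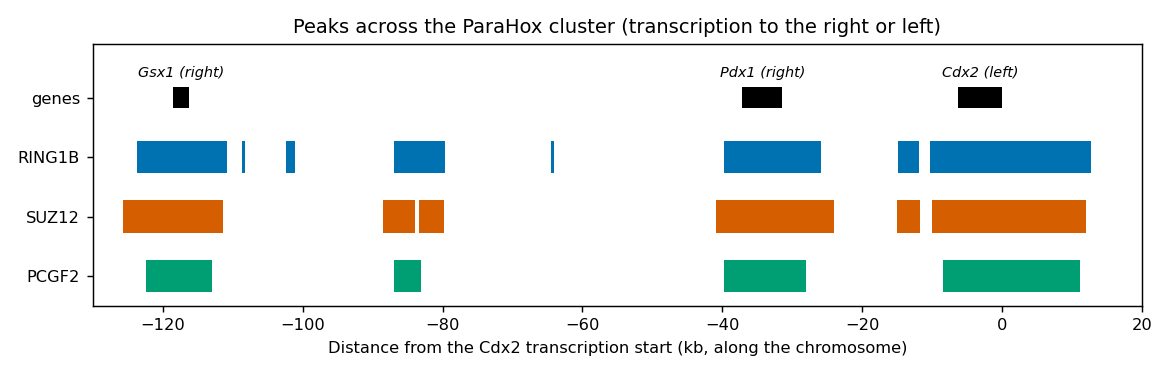
Peaks of RING1B, SUZ12 and PCGF2 across the ParaHox cluster, drawn to scale as distance from the Cdx2 start (kb along the chromosome), with the gene bodies in black and the direction of transcription in words. Each gene has its own peak in every list, and the 7.23 kb RING1B peak between Gsx1 and Pdx1 overlaps the other factors without a gene start.

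Within the Pdx1 peak the start was off centre. RING1B reached 2.65 kb upstream of it and 11.3 kb downstream, so that 19.0% of the peak was upstream, and SUZ12 (22.5%) and PCGF2 (21.9%) were similarly placed. The antisense gene Plut also starts inside this peak. At Gsx1 40.2% of the RING1B peak was upstream, and at Cdx2 55.1%.

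Evx1 and Evx2, the vertebrate even-skipped genes, flank the HoxA and HoxD clusters. Evx2 (chr2:74652991-74659557, minus strand) lay in the same RING1B peak as the Hoxd genes, chr2:74651985-74758844, with the starts of 13 genes in all, of which Hoxd13 is the next and Gm14424 the last along the chromosome. This peak was 107 kb wide and ranked 3, and 92.9% of it was upstream of the Evx2 start. The SUZ12 peak (116 kb, rank 3) covered it from end to end. The PCGF2 interval was shorter: 65.7 kb, ending 42.3 kb short of RING1B on the Hoxd side, where another PCGF2 peak of 35238 bp followed after a gap of 3.62 kb. Past the end of Evx2, RING1B stopped 1.01 kb and PCGF2 2.08 kb beyond the gene. The RING1B peak thus ended close to Evx2, but another of 3.59 kb, which overlapped SUZ12 and PCGF2 peaks, followed after 751 bp.

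Evx1 had a domain of its own. Its start is 52.6 kb from that of Hoxa13, compared with 8.67 kb between Evx2 and Hoxd13. The Evx1 RING1B peak was 20.0 kb (chr6:52305090-52325056, rank 103), and 27.5 kb separated it from the 131 kb peak over the Hoxa genes. A 4.19 kb RING1B peak, overlapping SUZ12 and PCGF2 and away from any curated start, lay in that interval, along with one of 0.329 kb. SUZ12 at Evx1 was 21.7 kb and PCGF2 15.2 kb, with a separate PCGF2 peak 1.12 kb further upstream. On the other side, no RING1B peak was found for 118 kb. The Evx1 peak also held the start of the antisense gene Evx1os.

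The engrailed genes En1 and En2, which act at the midbrain-hindbrain boundary and, for En1, in the limb, were similar to each other. En1 had the widest RING1B peak of the group after Evx2, 28.0 kb at chr1:120589182-120617181, rank 34. SUZ12 was 27.9 kb and PCGF2 22.2 kb. At En2 the widths were 20.7 kb for RING1B (chr5:28156647-28177378, rank 92), 22.4 kb for SUZ12 and 19.8 kb for PCGF2. En1 was 1.35 times as wide as En2 for RING1B and 1.12 times for PCGF2, so the pair was closest in PCGF2.

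Their surroundings differed. En2 had RING1B peaks on both sides, 10.3 kb wide at 30.0 kb upstream and 4.23 kb wide at 31.0 kb downstream, the latter at the start of Cnpy1, and both overlapped SUZ12 and PCGF2. The next RING1B peak upstream of En1 was 243 kb away, at C1ql2, and the nearest one downstream, 2.51 kb wide at a distance of 25.6 kb, overlapped neither other factor.

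The orthodenticle genes Otx1 and Otx2 specify forebrain and midbrain. At Otx1 the 3 factors were the most alike of any gene in the group: 22.8 kb for RING1B (chr11:21987403-22010230, rank 65), 21961 bp for SUZ12 and 21.8 kb for PCGF2, with 95.6% of the RING1B peak inside PCGF2. The Otx1 domain also stood alone, with the next RING1B peaks 276 kb upstream and 415 kb downstream, at Ehbp1 and at Mdh1 and Wdpcp.

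Otx2 is the member with known transcription in ESCs, and its peaks were within the range of widths of the other 9 genes in each list. The RING1B peak at its starts was 16.7 kb (chr14:48659337-48676067, rank 151), SUZ12 16.2 kb and PCGF2 13.6 kb. The 4 curated starts span 4910 bp and lay between 8.42 and 13.3 kb from the upstream edge. The gene body was not wholly covered: RING1B held 91.3%, SUZ12 79.0% and PCGF2 64.6%. The last exon was the one outside, with 47.9% of its 1650 bp in RING1B and 0% in SUZ12 and PCGF2. This RING1B part belonged to another peak of 7.52 kb, which began 870 bp after the first and overlapped SUZ12 but not PCGF2. The peak over the starts also held the start of the opposite-strand gene Otx2os1. Peak widths do not give the amount of RING1B bound, and neither expression nor signal was analysed here, so how much factor Otx2 carried relative to the silent genes was not measured. Otx1 was wider than Otx2 by 1.36 times for RING1B, 1.36 times for SUZ12 and 1.60 times for PCGF2.

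**Figure D3:**
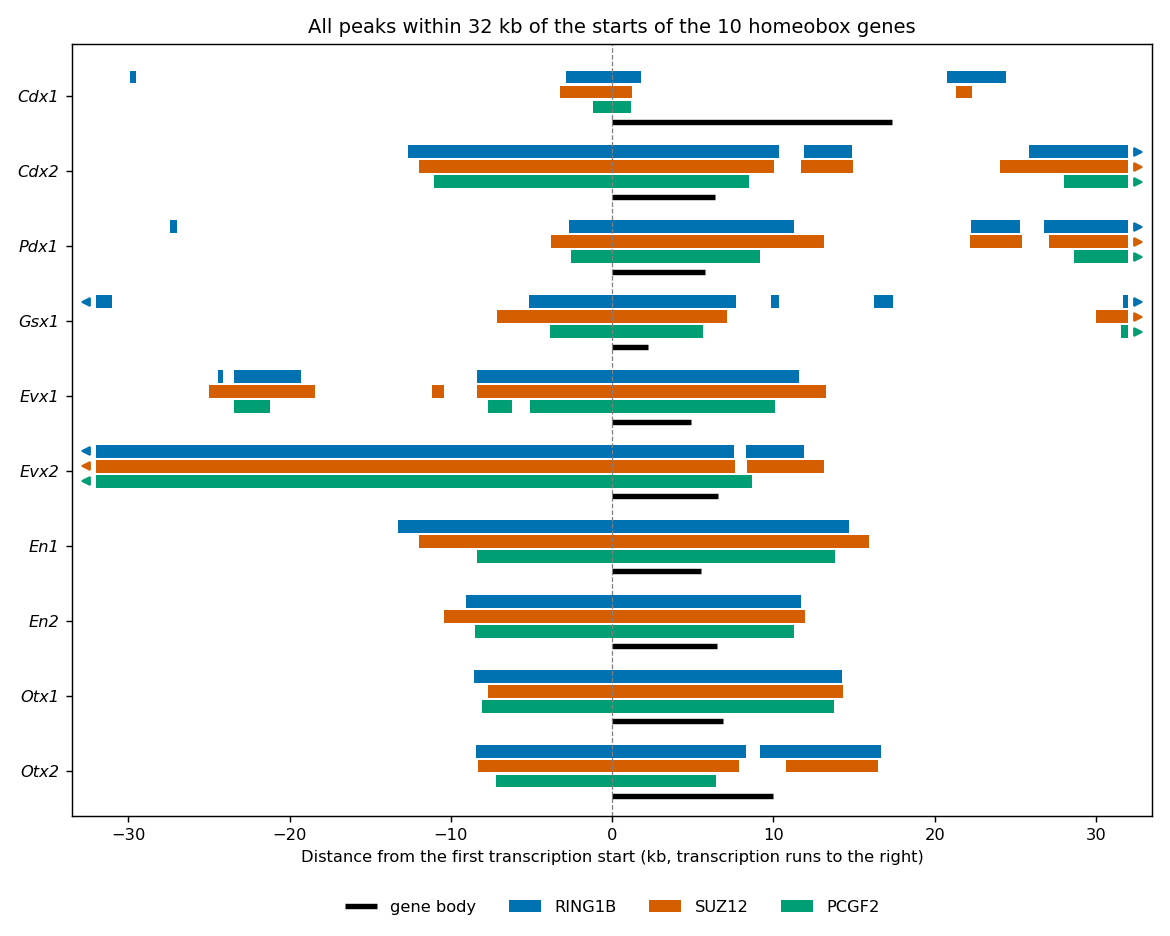
Every peak of RING1B, SUZ12 and PCGF2 within 32 kb of the first start of each gene, drawn to scale as distance from that start (kb, transcription to the right), with the gene body in black and arrowheads where a peak runs past the window. At 8 genes the peaks span the whole gene body, at Cdx1 they cover the start and the first exon, and at Otx2 the 3′ end lies in another RING1B peak or outside.

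The gene bodies of 8 of the 10 genes were wholly inside a RING1B peak, and the same 8 were wholly inside SUZ12 and PCGF2 peaks. Over all genes the percentages were 3.57% for RING1B, 2.49% for SUZ12 and 1.6% for PCGF2. Short genes are easier to cover, and these were short, with a median length of 6422 bp against 13451 bp over all genes. Among the 4453 genes of at most 10 kb with a RING1B promoter peak, 20.2% were wholly inside, compared with 8 of the 9 genes of that length here.

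The domains extended to both sides of the first start. The median reach of RING1B was 8.50 kb upstream and 10.8 kb downstream, and the downstream arm was the longer at 6 of the 10 genes. Apart from Evx2 with its Hoxd neighbours, the upstream share ran from 19.0% at Pdx1 to 61.4% at Cdx1.

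The edges of the lists were then compared gene by gene. Only the widest promoter peak of each list was used, so a short break in a list counts as an edge. Upstream of Evx2, for example, RING1B broke for 629 bp before another RING1B peak of 6905 bp. SUZ12 and RING1B edges lay close together and in no fixed order: SUZ12 was the wider at 5 genes and the narrower at 5, and its width was between 95.5% and 121% of that of RING1B. Away from Evx2, the edges furthest apart were upstream at Gsx1, where SUZ12 passed RING1B by 1996 bp, and downstream at Pdx1 and Evx1, where it did so by 1816 bp and 1725 bp. PCGF2 was the narrower at all 10 and lay wholly inside the RING1B peak at 9, Evx2 being the exception with 1073 bp beyond. Edges were not compared at other genes, so these counts are not shown to be particular to the group. The PCGF2 width was between 50.3% of RING1B at Cdx1 and 95.6% at Otx1, with a median of 80.3%. The PCGF2 list required a peak in every replicate while the other lists came from merged replicates, so the rule and the protein cannot be told apart as the source of the shorter intervals.

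**Figure D4:**
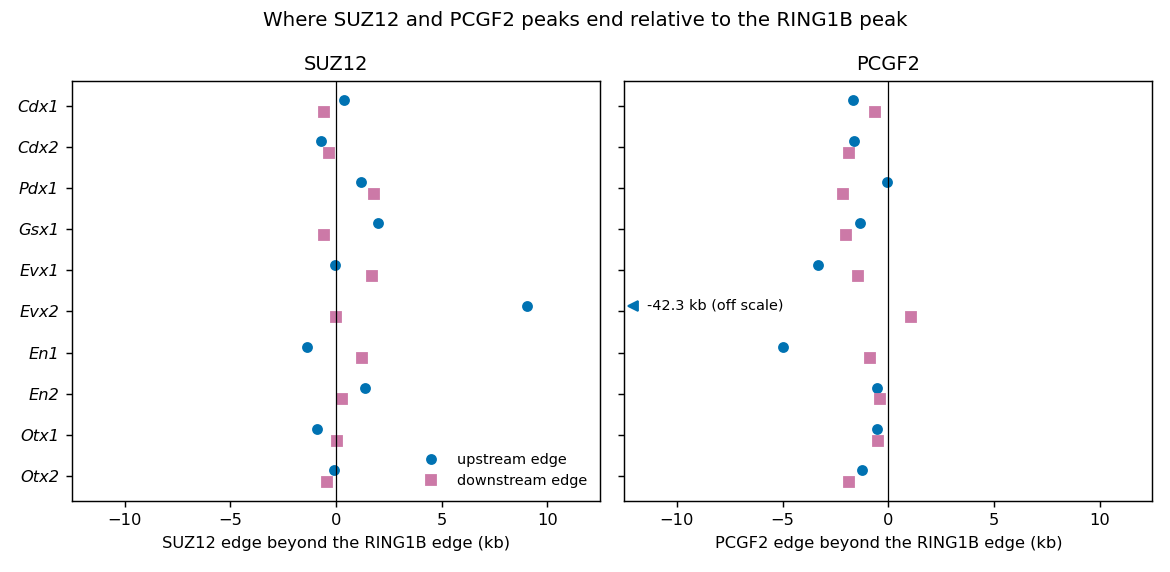
Position of the SUZ12 (left) and PCGF2 (right) peak edges relative to the edge of the RING1B peak at the same gene (kb, positive where the factor reaches further out), for the upstream (circles) and downstream (squares) edges. SUZ12 edges fall on both sides of 0, and PCGF2 edges fall inside except at the downstream edge of Evx2; the upstream PCGF2 edge of Evx2 is 42.3 kb inside and is drawn as an arrow.

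Put as bases, a median of 96.4% of the RING1B peak lay in SUZ12 and 83.8% in PCGF2. Over the 533 RING1B promoter peaks of at least 8000 bp at genes with all 3 factors, the medians were 98.6% and 77.3%. For the 2943 RING1B promoter peaks of any width at such genes they were 99.1% for SUZ12 and 63.4% for PCGF2. The PCGF2 share at the 10 genes was thus closer to that of long domains than to that of all domains.

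The CpG content of the promoters was above that of most genes. CpG observed/expected, the number of CpGs relative to that given by the C and G content, had a median of 0.64 over the 10 promoters, 0.33 over all genes and 0.49 over the 3508 genes with all 3 factors. It was highest at En1 (0.71), En2 (0.69) and Gsx1 (0.66), and lowest at Evx1 (0.39), Pdx1 (0.43) and Cdx1 (0.44). The narrow Cdx1 and the broad Evx1 thus had similar promoters by this measure.

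Over the whole RING1B peak the value was lower, with a median of 0.45, the same as for all 619 RING1B peaks of at least 8000 bp. In the 10 kb on either side of the peak the median was 0.19, and CpGs fell from 2.80 per 100 bp in the peak to 0.95 per 100 bp outside. Each of the 10 peaks was denser in CpG than its own flanks, from 1.60 times at Cdx2 to 4.58 times at Otx1. Other RING1B peaks were not compared with their flanks, so this is not shown to be particular to these genes.

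CpG islands, taken as stretches of at least 500 bp in which 200-bp windows had 50% G and C and an observed/expected of 0.6, were multiple in most domains. The RING1B peak held 1 island at Cdx1, 2 at Pdx1, 4 at Cdx2, Gsx1, Evx1 and Otx2, 5 at En1 and Otx1, 6 at En2 and 23 at Evx2. At least 4 islands were present in 8 of the 10 peaks and in 29.9% of RING1B peaks of at least 8000 bp, and longer peaks have room for more. Islands made up a median of 25.3% of the peak, near the 26.5% of all RING1B peaks of that width. A start lay in an island at 9 genes, at Otx2 for 2 of its 4 starts, and at Pdx1 the start was 14 bp outside one. The same share over all genes was not counted. The peaks ran past their outermost islands by a median of 2.58 kb upstream and 3.22 kb downstream.

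**Figure D5:**
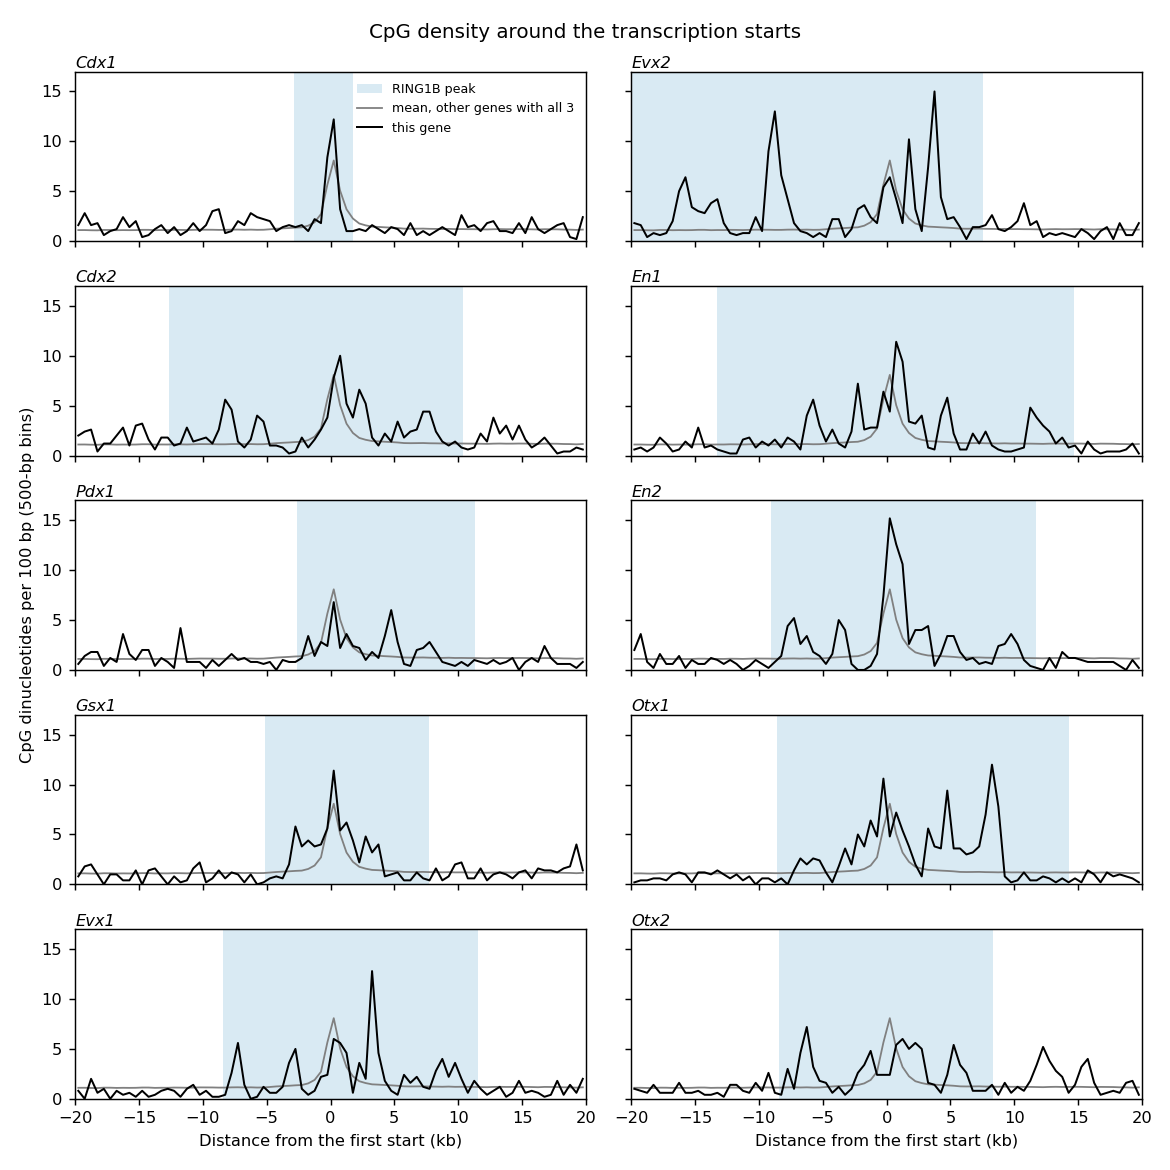
CpG dinucleotides per 100 bp in 500-bp bins (black lines) against distance from the first start (kb, transcription to the right), with the RING1B peak shaded and the mean of the 3498 other genes with all 3 factors in grey. The mean has a single summit of 8.08 at the start, while at Otx1, Evx1, Evx2 and Otx2 the highest bin of the gene lies 8.25, 3.25, 3.75 and -6.25 kb from it. A mean smooths out summits away from the start, and the other genes were not examined singly.

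In the density profiles Cdx1 had a single sharp summit of 12.2 CpGs per 100 bp at its start, with 2 bins above 4. Evx2 had 14 such bins, Otx1 12, Otx2 10, Cdx2 9, En1, En2 and Gsx1 8 each, Evx1 7 and Pdx1 3, so that Pdx1, with a 13.9 kb RING1B peak, was close to Cdx1 in this count. At Otx2 the start lay between richer bins and the highest bin, of 7.2, was 6.25 kb upstream. Pdx1 was low throughout, with a highest bin of 6.8.

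Repeats, read as the masked bases of the reference, made up a median of 15.5% of the RING1B peaks of these genes and 14.2% of all RING1B peaks of at least 8000 bp. In the flanks of the 10 genes the median was 26.1%. Gsx1 had the most within its peak, 24.0%, and Cdx1 the least, 6.85%.

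Short motifs were counted on both strands in the 300 bases from 250 before to 50 after the start. Only the 10 starts of the 7 matched genes were searched, so Cdx1, En2 and Otx1 are not covered. The E-box CACGTG, which MYC and related factors can bind, was present at En1 and Pdx1 and in 7.15% of all promoters in the table. In the runs printed above it is the stretch caCGtg. The GC-rich GCGCGC was at Cdx2, En1 and Evx1 (13.6% of all), the Cdx-type TTTATTG at Evx1 and Evx2 (4.60%), and TTTATGG at 0 of the 10 starts (2.75%). TAATCC, the type bound by Otx proteins, was at a single start of Otx2 (7.06%), the homeodomain palindrome TAATTA at 2 starts of Otx2 (5.29%) and TATAAA at Evx2 and Otx2 (13.6%). TAATTA and TAATCC share their first 4 letters. These matches are letters in a window and were not tested for binding.

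Related genes showed how far the pattern extends. Of 12 other homeobox genes of related families, 11 had a RING1B promoter peak, 10 had all 3 factors and 8 had a RING1B peak of at least 8000 bp, beside the 53.2%, 13.4% and 3.4% of all genes given above. The widest were Emx2 (23.3 kb), Gbx2 (23.2 kb) and Gsx2 (20.4 kb), and Crx, the photoreceptor relative of Otx2, had no peak of any factor. Cdx4, the X-linked caudal gene, had peaks of 3129 bp for RING1B, 3259 bp for SUZ12 and 2332 bp for PCGF2, so Cdx4 and Cdx1 were narrow and Cdx2 wide. Of 8 genes of the midbrain-hindbrain boundary, where En1, En2 and Otx2 act, all 8 had RING1B and SUZ12 and 6 had all 3. For SUZ12 the share of all genes was 24.8%. Pax2 was the widest at 33.4 kb, and Fgf17 and Spry1 were without PCGF2. Gbx2 is in both lists, so their counts share a gene.

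Genes active in stem cells were set beside Otx2. Of 8 such genes, including the core pluripotency factors Pou5f1, Sox2 and Nanog, 6 had a RING1B promoter peak, 2 had SUZ12 and the same 2, Klf4 and Esrrb, had PCGF2. With 53.2%, 24.8% and 13.5% of all genes called for RING1B, SUZ12 and PCGF2, the list was not below the share of all genes for any of them. None reached 8000 bp of RING1B, the widest being Sox2 (6852 bp) and Esrrb (6752 bp), and Nanog and Zfp42 had no peak of any factor. The 16.7 kb RING1B peak of Otx2 was longer than the widest promoter peak of each of the 6 that had one.

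For each gene the nearest other gene in the widths of its widest RING1B, SUZ12 and PCGF2 promoter peaks was sought among 3508 genes with all 3, by Euclidean distance on the log2 scale and without shared peaks. Cdx1 was nearest to Npr2 (distance 0.06), Gsx1 to Dbx1 (0.04), Evx1 to Pitx1 (0.10) and En1 to Six3 (0.10). Dbx1, Pitx1 and Six3 are homeobox genes too, and Npr2 encodes a natriuretic peptide receptor. The nearest genes to the others were 2810405F15Rik for Cdx2, 4930442E04Rik for Pdx1, Gm36878 for Evx2, 6430503K07Rik for En2, Gm16551 for Otx1 and 9530036O11Rik for Otx2, at distances between 0.03 and 0.23.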

How the data were processed

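Peak lists for RING1B (18643 peaks), SUZ12 (7438) and PCGF2 (3680) were used as deposited: each value is the start or end of a peak in bp on mm10. The authors had aligned the read pairs to mm10 combined with hg19, the genome of the spike-in, by Bowtie 2, discarded duplicates by Sambamba and used MACS2 in broad mode with Input as control. RING1B and SUZ12 peaks came from merged replicates and had to be present in both untreated lines. RING1B peaks that did not lose signal in tamoxifen-treated PRC1CKO cells had been dropped, using RING1B data from outside the samples given here. PCGF2 peaks had to be present in all PRC1CPM replicates. These filters can change which sites are listed and how wide they are, and the depth behind a peak is unknown.

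Coordinates are given from base 1 and were compared with curated transcripts of RefSeq (GRCm38.p6), with Python 3.11.15, NumPy 2.4.6, pandas 2.3.3 and matplotlib 3.10.9. A peak was assigned to a promoter (TSS plus or minus 2500 bp) at an overlap of at least 1 bp. Samples were grouped by their titles. The interval code was checked against a brute-force search on simulated data. No test was made, since no list has replicates. Counts of promoter peaks, wide peaks and covered gene bodies are set beside the same over all genes, but not every count is. The genes and the lists of related genes were chosen with earlier results of these data known. The genes named are the 10 members, genes starting in their RING1B peaks, flanking RING1B peaks, the nearest gene in peak widths and examples from the related lists. Alternatives changed the promoter, the transcripts, the peaks kept and joined, the width limit and the sequence window.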

Additional observations from a re-analysis of the deposited data

How the results depend on the processing

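Of 67 alternative settings over 14 results, 63 left the result within 1.5 times (counts) or 10% (medians) of its value, the 10% being set by choice because the lists have no replicates. The number of genes with all 3 factors remained 10 under narrower promoters, the start base alone and peaks of at least 1000 bp. It was 9 where 50% of the promoter window had to be covered by each factor, since PCGF2 at Cdx1 fell out. Adding predicted transcripts or the gene body can only add hits, so a count of 10 could not change there. Such settings are among the 63. The number with a RING1B peak over the width limit was 9 at 5000, 8000 and 12000 bp. Without Evx2, whose peak is shared with the Hoxd genes, the median PCGF2 width was 15188 bp. The median promoter CpG observed/expected was 0.71 with a window of 1000 bp and 0.76 with 500 bp on each side, and 0.45 over the whole RING1B peak, and the cause was not tested. No paired analysis was possible because each list gives 1 set of intervals and nothing per sample.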
